A study of Homo sapiens with 18 samples.

Results

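The 10 genes described here are the transcriptional coactivators YAP and TAZ, 1 of their DNA-binding partners and 7 genes that YAP and TAZ are known to activate or that act within the Hippo pathway: YAP1, WWTR1 (which encodes TAZ), TEAD1, ANKRD1, CCN1, CCN2, AMOTL2, AXL, LATS2 and AJUBA. They were chosen by symbol from a table of 28266 gene rows, and all 10 were present and passed the filter on low counts that kept 14341 genes. A row with the symbol TAZ, an older name of the gene for tafazzin, was not used. RNA was measured in IMR90 ER:RAS cells, a line of human lung fibroblasts that carries, in every group, a fusion of oncogenic RAS that 4-hydroxytamoxifen (4OHT) switches on. Senescent groups received 100 nM 4OHT and control groups DMSO, and 7 days later each was given IMP1088 at 300 nM, DDD86481 at 1.5 µM or DMSO for 3 days and collected on day 10. IMP1088 and DDD86481 inhibit the N-myristoyltransferases (NMTi), enzymes that attach a fatty acid to the start of many proteins. Each of the 6 groups had 3 libraries, of 16143716 to 23189950 counts. No library without the fusion was given 4OHT here, so senescence and exposure to 4OHT cannot be told apart.

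The Hippo pathway is a kinase cascade in which MST kinases activate LATS kinases, which phosphorylate YAP and TAZ and hold them in the cytoplasm. When the cascade is quiet, YAP and TAZ enter the nucleus and, bound to TEAD factors, switch on genes such as CCN1 and CCN2. In fibroblasts this activity is known to follow cell shape, matrix stiffness and contractile actin fibres. The activity is set largely by phosphorylation and location, which RNA levels do not report.

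In senescent cells given DMSO, 9 of the 10 transcripts were lower than in control cells, as were 36% of all genes tested. Within senescent cells each compound lowered 8 of the 10, YAP1, WWTR1 and TEAD1 among them, and ANKRD1 alone of the 10 rose under both compounds. Of all genes tested, 23.9% were lower and 20.6% higher there with IMP1088, and 23.1% and 20.1% with DDD86481. In control cells YAP1 and CCN1 did not pass the test under either compound, and ANKRD1 fell. The values follow by role, after the promoters of the pair of targets that moved in opposite directions.

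Promoters of CCN2 and ANKRD1 are shown because both genes are textbook targets of YAP and TAZ, and NMTi lowered one and raised the other in senescent cells. Each line holds the 250 bases before the gene start from RefSeq (GRCh38.p14), written along the strand of the gene, the minus strand in both cases, at chr6:131951373-131951622 for CCN2 and chr10:90921088-90921337 for ANKRD1. Capitals mark the TEAD motif GGAATG.
CCN2: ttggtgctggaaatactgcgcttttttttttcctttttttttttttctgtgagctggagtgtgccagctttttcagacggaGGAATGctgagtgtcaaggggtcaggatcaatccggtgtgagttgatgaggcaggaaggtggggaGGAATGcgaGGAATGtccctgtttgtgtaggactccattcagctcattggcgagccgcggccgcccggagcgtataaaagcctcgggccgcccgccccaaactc
ANKRD1: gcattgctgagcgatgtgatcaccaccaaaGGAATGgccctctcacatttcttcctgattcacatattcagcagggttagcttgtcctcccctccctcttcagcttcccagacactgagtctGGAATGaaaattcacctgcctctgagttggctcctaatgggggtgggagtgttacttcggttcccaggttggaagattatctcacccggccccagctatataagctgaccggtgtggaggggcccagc

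The CCN2 window held the motif 3 times, with first bases 169, 104 and 95 bases before the start, and the ANKRD1 window held it 2 times, at 220 and 128. Searched on both strands, GGAATG was in 11.9% of the 35116 promoters of this length, at least 2 copies in 0.94% and at least 3 in 0.0826%. RefSeq entries were found for 8 of the 10 genes, with 12 promoters in all, and 6 of the 12 promoters (50%) held a match, 1 each of YAP1, ANKRD1, CCN2, AMOTL2, AXL and AJUBA, beside 10.1% of the promoters of genes tested. AMOTL2, AXL and AJUBA each had 2 windows, and the match lay only in the window before the more downstream start. WWTR1 and LATS2 had an entry and no match in these windows, and TEAD1 and CCN1 had no entry. The AP-1 motif TGANTCA, in 6.57% of all promoters, matched only the ANKRD1 window among these genes, with its first base at 195. It did not overlap a TEAD match. A match of letters is a description and not a measured binding site.

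**Figure D1:**
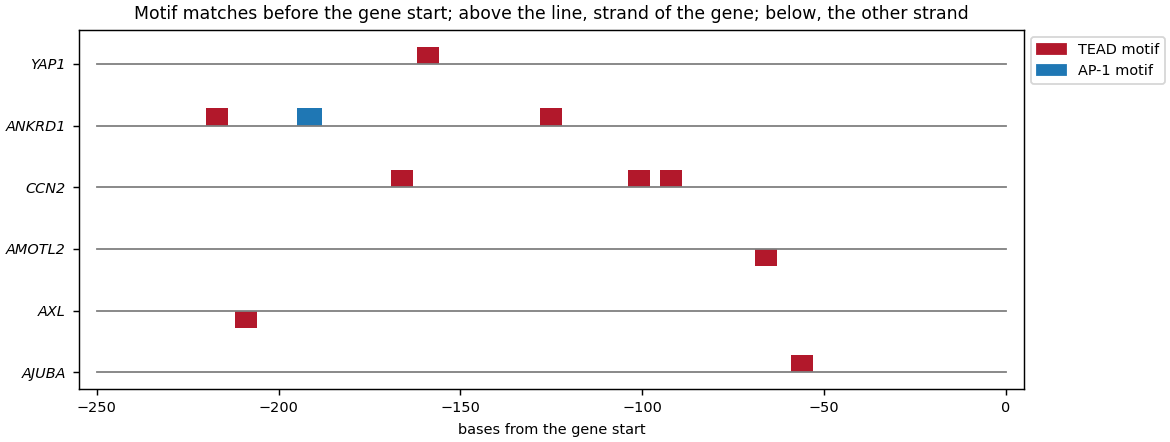
Matches of the TEAD motif (red) and the AP-1 motif (blue) in the 250 bases before a RefSeq start of 6 genes, with that start at 0 on the right. For AMOTL2, AXL and AJUBA, which had 2 windows each, the matches are those before the more downstream start. CCN2 held 3 TEAD matches, and ANKRD1 held 2 TEAD matches and the only AP-1 match.

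YAP1 (chromosome 11, 101981178 to 102104155, GRCh37, as for the positions that follow) encodes the coactivator YAP. In control cells given DMSO it had 248, 235 and 193 CPM (counts scaled to a common library size), in replicates 1 to 3, and in senescent cells given DMSO it had 169, 178 and 168 CPM. The senescent libraries all lay below the control libraries, with a log2 fold change of -0.40 ± 0.09 (SE, as for all fold changes; adjusted p = 0.000649). IMP1088 left 105, 105 and 114 CPM in senescent cells and DDD86481 left 110, 114 and 126 CPM. All 6 of these libraries lay below the senescent DMSO libraries, and YAP1 fell by 0.67 ± 0.09 (adjusted p = 6.36e-06) with IMP1088 and by 0.56 ± 0.09 (adjusted p = 5.23e-05) with DDD86481 on the log2 scale. Control cells held 229, 232 and 213 CPM with IMP1088 and 236, 242 and 230 CPM with DDD86481. These ranges overlapped that of DMSO, with log2 fold changes of -0.01 (95% interval -0.20 to 0.18) and 0.06 (-0.12 to 0.25).

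WWTR1 (chromosome 3, 149235022 to 149454501) encodes TAZ, the paralogue of YAP. It had 246, 249 and 219 CPM in control cells given DMSO and 144, 139 and 130 CPM in senescent cells given DMSO. The groups did not overlap, and WWTR1 fell by 0.79 ± 0.08 on the log2 scale (adjusted p = 1.76e-08). With NMTi, senescent cells held 74.1, 75.7 and 77.2 CPM (IMP1088) and 84.7, 78.8 and 81.1 CPM (DDD86481). Every one of these was below the lowest senescent DMSO library, and the falls were 0.86 ± 0.08 (adjusted p = 4.01e-08) with IMP1088 and 0.76 ± 0.08 (adjusted p = 2.54e-07) with DDD86481 on the log2 scale. In control cells the values were 215, 200 and 193 CPM with IMP1088 and 214, 206 and 214 CPM with DDD86481. They too lay below the DMSO libraries, with a log2 fold change of -0.23 ± 0.08 (adjusted p = 0.0248) for IMP1088 and -0.17 ± 0.08 (adjusted p = 0.0844) for DDD86481. The IMP1088 call in control cells was lost without control DMSO replicate 1 or 2 or without control IMP1088 replicate 2 or 3 (adjusted p from 0.0584 to 0.131). With the replicate number as a block in a fit of these groups alone it was lost too (adjusted p = 0.0913), as it was with no filter (adjusted p = 0.0947). The DDD86481 value passed with upper quartile scaling (adjusted p = 0.0191) and without control DMSO replicate 3 (adjusted p = 0.0251).

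TEAD1 (chromosome 11, 12695968 to 12966284) encodes a TEAD factor, which carries YAP and TAZ to DNA. In control cells given DMSO it had 202, 165 and 98.8 CPM, and in senescent cells given DMSO 126, 129 and 117 CPM. Control DMSO replicate 3 was the lowest library of its group, below all senescent DMSO libraries, and the difference of -0.32 ± 0.16 did not pass (adjusted p = 0.0789). Leaving out 1 library moved it widely, to -0.56 (adjusted p = 2.89e-05) without control DMSO replicate 3 and to -0.0873 (adjusted p = 0.599) without control DMSO replicate 1. Under NMTi senescent cells held 51.5, 51.8 and 57.8 CPM with IMP1088 and 53.3, 57.5 and 68.6 CPM with DDD86481. All lay well below senescent DMSO, and TEAD1 fell by 1.21 ± 0.16 (adjusted p = 5.99e-06) with IMP1088 and by 1.06 ± 0.16 (adjusted p = 2.92e-05) with DDD86481 on the log2 scale. Control cells held 137, 127 and 128 CPM with IMP1088 and 148, 147 and 145 CPM with DDD86481, within the range of control DMSO. The log2 fold changes were -0.25 (95% interval -0.59 to 0.08) and -0.08 (-0.41 to 0.25), and without control DMSO replicate 3 they passed, at -0.49 (adjusted p = 0.000602) and -0.32 (adjusted p = 0.0176), while without control DMSO replicate 1 they were -0.0181 (adjusted p = 0.938) and 0.15 (adjusted p = 0.404).

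Among the other TEAD genes, levels were compared per kilobase of annotated exon. In control cells given DMSO, YAP1 had 35.7 ± 4.58 CPM per kilobase (SD, n = 3 libraries, as for the other levels given with an error) and TEAD2 had 32.3 ± 2.73, a difference within their spread. WWTR1 had 28.5 ± 1.94 and TEAD3 had 27.4 ± 2.66 CPM per kilobase, which also did not differ beyond their spread, while TEAD1 had 14.5 ± 4.89 and TEAD4 5.01 ± 0.141. TEAD2 fell in senescent cells given DMSO by 1.09 ± 0.09 on the log2 scale (adjusted p = 2.44e-09), and NMTi lowered it further, by 0.72 ± 0.10 with IMP1088 (adjusted p = 5.48e-06) and by 0.65 ± 0.10 with DDD86481 (adjusted p = 1.65e-05). TEAD2 shares 10.7% of its exonic bases with CD37 on the other strand. TEAD4 fell by 1.09 ± 0.19 with senescence, by 0.88 ± 0.21 with IMP1088 in senescent cells and by 0.94 ± 0.21 with DDD86481 in them (highest adjusted p = 0.00203). TEAD3 fell by 0.49 ± 0.11 with senescence (adjusted p = 0.000413) and by 0.35 ± 0.11 with DDD86481 in senescent cells (adjusted p = 0.0138), and its value for IMP1088 there was -0.23 (95% interval -0.46 to -0.0041, adjusted p = 0.0915). The DDD86481 call of TEAD3 was lost without senescent DMSO replicate 3 (adjusted p = 0.0785) or senescent DDD86481 replicate 1 (adjusted p = 0.0878).

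**Figure D2:**
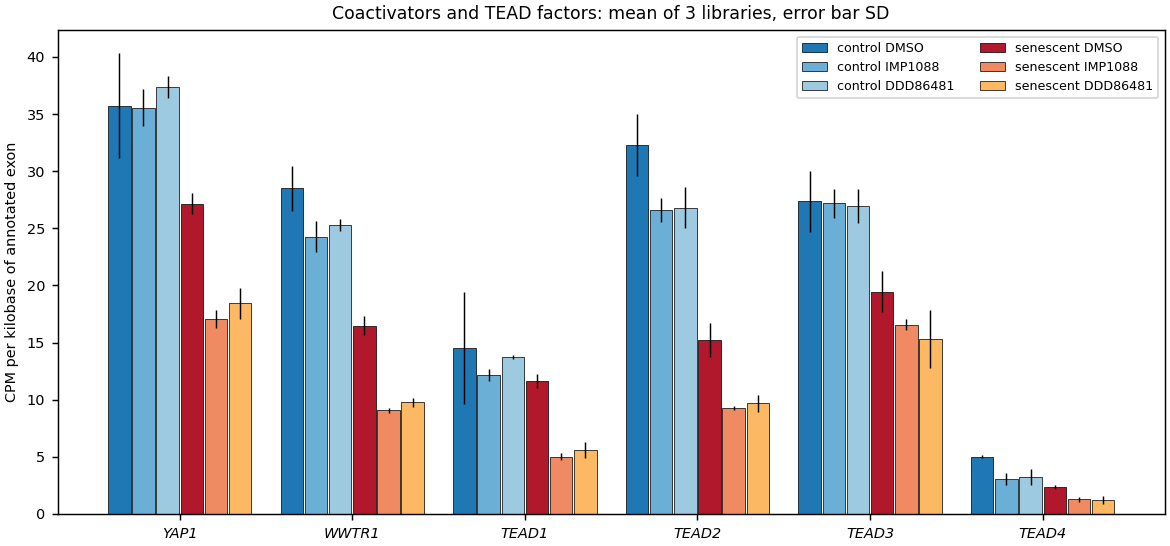
Mean CPM per kilobase of annotated exon of YAP1, WWTR1 and the 4 TEAD genes in the 6 groups, with error bars of 1 SD over 3 libraries. In control DMSO libraries YAP1 had 35.7 and TEAD4 5.01 CPM per kilobase, and the senescent NMTi bars are the lowest for each gene.

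CCN1 (chromosome 1, 86046444 to 86050272) and CCN2 (chromosome 6, 132269316 to 132272512), once called CYR61 and CTGF, encode secreted matrix proteins and are the targets most used to read YAP and TAZ activity. CCN1 had 524, 556 and 514 CPM in control cells given DMSO and 196, 250 and 179 CPM in senescent cells given DMSO. It was lower in each senescent library, by 1.35 ± 0.17 on the log2 scale (adjusted p = 6.45e-07). With IMP1088 it had 82.1, 113 and 94.3 CPM in senescent cells, and with DDD86481 97.3, 126 and 100 CPM. Both groups lay below senescent DMSO without overlap, and CCN1 fell by 1.11 ± 0.17 (adjusted p = 2.76e-05) with IMP1088 and by 0.95 ± 0.17 (adjusted p = 0.000151) with DDD86481 on the log2 scale. In control cells CCN1 had 448, 615 and 444 CPM with IMP1088 and 673, 512 and 416 CPM with DDD86481. Both groups spread around the DMSO values, with log2 fold changes of -0.08 (95% interval -0.43 to 0.27) and 0.01 (-0.34 to 0.36).

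CCN2 had 1114, 1207 and 1495 CPM in control cells given DMSO, and 360, 511 and 331 CPM in senescent cells given DMSO. Its fall of 1.67 ± 0.21 on the log2 scale (adjusted p = 5.9e-07) was the largest of the 10 genes in this comparison. Senescent cells given IMP1088 held 123, 215 and 176 CPM and those given DDD86481 held 160, 261 and 212 CPM. All 6 libraries lay below the senescent DMSO libraries, with falls of 1.23 ± 0.21 (adjusted p = 7.42e-05) with IMP1088 and 0.92 ± 0.21 (adjusted p = 0.00114) with DDD86481 on the log2 scale. Unlike CCN1, CCN2 was also lower in control cells, where it had 625, 867 and 858 CPM with IMP1088 and 932, 709 and 744 CPM with DDD86481. No such library reached the lowest control DMSO value, and the falls were 0.70 ± 0.20 (adjusted p = 0.0124) with IMP1088 and 0.68 ± 0.20 (adjusted p = 0.0139) with DDD86481 on the log2 scale. These control-cell calls were lost without control IMP1088 replicate 1 (adjusted p = 0.078) and without control DDD86481 replicate 2 or 3 (adjusted p = 0.0561 and 0.0542). CCN2 shares 11.89% of its exonic bases with LINC01013 on the other strand, and the strand setting of the counting is not given in the sources used here.

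ANKRD1 (chromosome 10, 92671853 to 92680844) encodes an ankyrin-repeat protein of muscle and is a target of YAP and TAZ. Its level was low throughout. Control cells given DMSO had 0.766, 1.33 and 2.09 CPM, from 19, 33 and 42 counts, and senescent cells given DMSO had 0.432, 0.809 and 0.714 CPM, from 7, 13 and 13 counts. These groups overlapped, and the log2 fold change of -1.06 ± 0.46 passed narrowly (adjusted p = 0.0459). Leaving out any of these libraries but control DMSO replicate 1 ended the call, and without control DMSO replicate 3 the value was -0.68 (adjusted p = 0.213).

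With NMTi the 2 states moved apart. In senescent cells ANKRD1 had 3.05, 8.78 and 6.45 CPM with IMP1088, from 58, 157 and 115 counts, and 6.44, 7.89 and 8.46 CPM with DDD86481, from 118, 151 and 138 counts. All 6 libraries were above every other library of the study, and ANKRD1 rose by 3.20 ± 0.39 (adjusted p = 1.92e-06) with IMP1088 and by 3.53 ± 0.39 (adjusted p = 5.14e-07) with DDD86481 on the log2 scale. In control cells it had 0.251, 0.624 and 0.389 CPM with IMP1088 and 0.365, 0.336 and 0.374 CPM with DDD86481, from 5 to 14 counts. All of these lay below the control DMSO libraries, with falls of 1.66 ± 0.47 (adjusted p = 0.0101) with IMP1088 and 1.91 ± 0.50 (adjusted p = 0.0054) with DDD86481 on the log2 scale. The IMP1088 call in control cells was lost without control DMSO replicate 3 (adjusted p = 0.0568) or control IMP1088 replicate 1 (adjusted p = 0.0526). Even at its highest group mean, with DDD86481 in senescent cells, ANKRD1 had 4.24 CPM per kilobase, beside 90.3 for CCN2 in the same libraries.

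**Figure D3:**
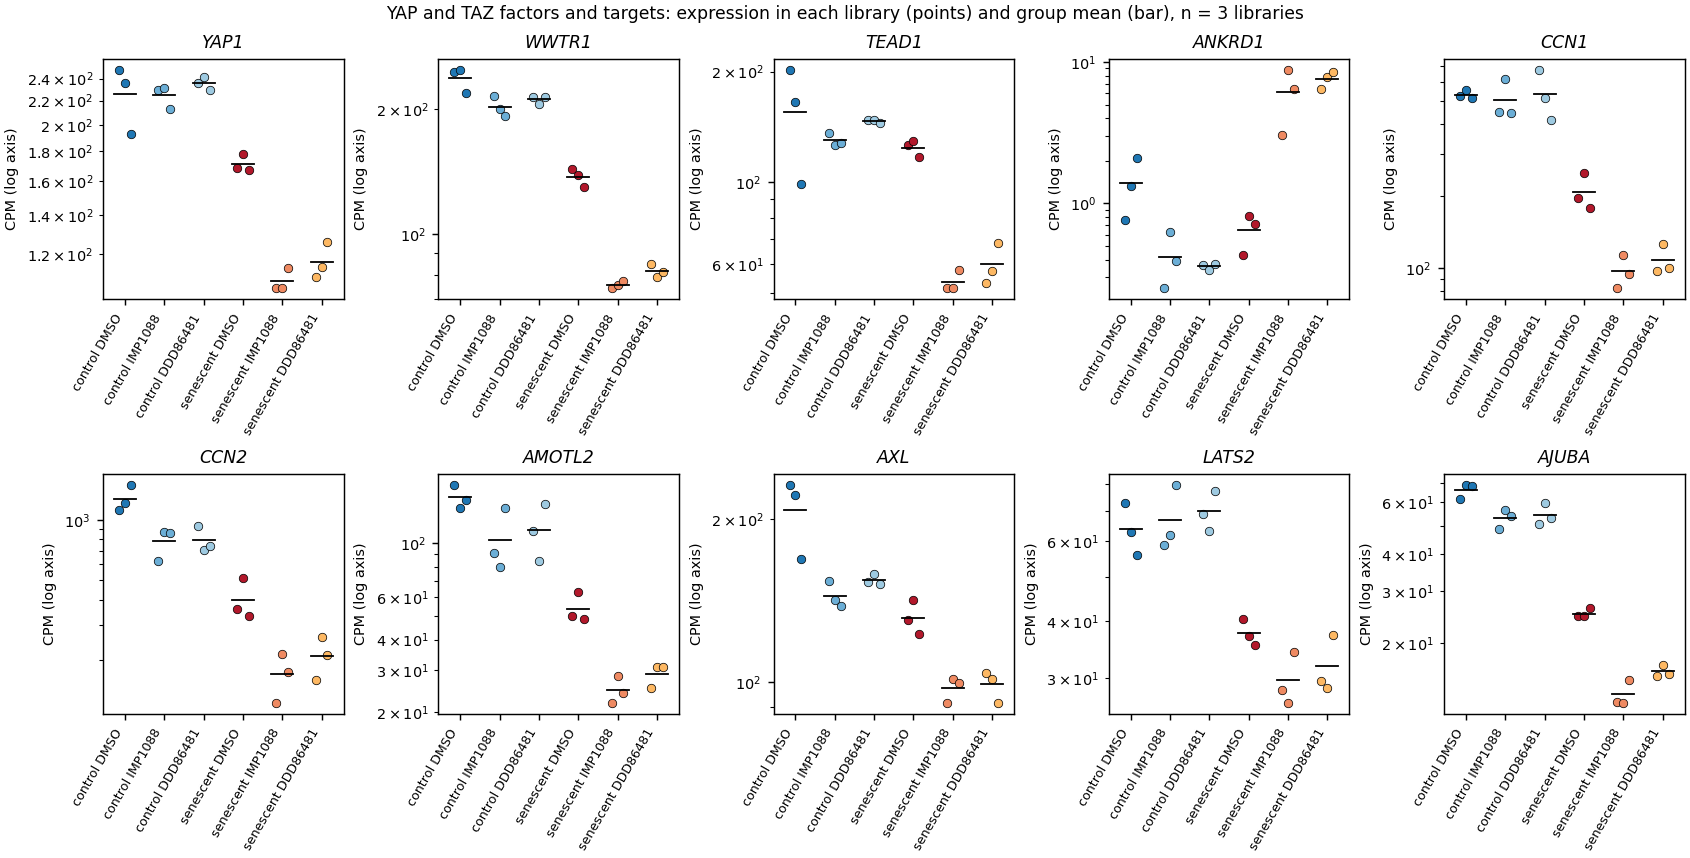
CPM of the 10 genes on log axes, 1 point per library and a bar at the mean of the 3 libraries, in control (blue) and senescent (red to orange) groups. Of the 10 panels, ANKRD1 is the only one in which the senescent NMTi libraries are the highest, between 3.05 and 8.78 CPM.

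AMOTL2 (chromosome 3, 134074189 to 134094321) encodes an angiomotin, which binds YAP and TAZ in the cytoplasm, and is itself a target. Its level ran from 141 to 175 CPM in control DMSO libraries, from 48.5 to 62.7 in senescent DMSO, from 21.9 to 28.4 in senescent IMP1088 and from 25.1 to 30.9 in senescent DDD86481. It fell by 1.53 ± 0.19 with senescence (adjusted p = 6.1e-07), and in senescent cells by 1.12 ± 0.20 with IMP1088 (adjusted p = 0.000121) and by 0.89 ± 0.20 with DDD86481 (adjusted p = 0.00101). In control cells it had 91.7, 79.7 and 140 CPM with IMP1088 and 113, 84.2 and 145 CPM with DDD86481, so that replicate 3 was the highest in both. The value of -0.58 ± 0.19 passed for IMP1088 (adjusted p = 0.0211) and that of -0.45 ± 0.19 did not for DDD86481 (adjusted p = 0.0678). The IMP1088 call was lost without control DMSO replicate 1 or control IMP1088 replicate 1 or 2 (highest adjusted p = 0.117), and the DDD86481 value passed without control DDD86481 replicate 3 (adjusted p = 0.0171), with upper quartile scaling (adjusted p = 0.0356) and with no filter (adjusted p = 0.00811).

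AJUBA (chromosome 14, 23440386 to 23451760) encodes a LIM protein that binds and restrains LATS kinases. It ran from 61.4 to 68.9 CPM in control DMSO, from 24.6 to 26.3 in senescent DMSO, from 12.5 to 15 in senescent IMP1088 and from 15.5 to 16.8 in senescent DDD86481 libraries. Those 4 groups did not overlap one another. AJUBA fell by 1.40 ± 0.10 with senescence (adjusted p = 1.15e-10) and in senescent cells by 0.91 ± 0.10 with IMP1088 (adjusted p = 7.85e-07) and by 0.65 ± 0.10 with DDD86481 (adjusted p = 3.75e-05). Control cells had 48.9 to 56.5 CPM with IMP1088 and 50.7 to 59.7 with DDD86481, falls of 0.32 ± 0.10 (adjusted p = 0.0144) with IMP1088 and 0.28 ± 0.10 (adjusted p = 0.0257) with DDD86481 on the log2 scale. The control-cell calls were lost without control DMSO replicate 2 (both), control IMP1088 replicate 1, control DMSO replicate 3 (DDD86481 alone) and control DDD86481 replicate 1 or 3 (adjusted p from 0.0567 to 0.129).

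AXL (chromosome 19, 41725128 to 41767671) encodes a receptor tyrosine kinase. It ran from 169 to 232 CPM in control DMSO, from 123 to 142 in senescent DMSO, from 91.4 to 101 in senescent IMP1088 and from 91.5 to 104 in senescent DDD86481 libraries. The falls were 0.66 ± 0.10 with senescence (adjusted p = 9.48e-06), 0.43 ± 0.10 with IMP1088 in senescent cells (adjusted p = 0.00186) and 0.41 ± 0.10 with DDD86481 in them (adjusted p = 0.00301). Control cells showed falls of the same order, 0.52 ± 0.10 with IMP1088 (adjusted p = 0.000552) and 0.43 ± 0.10 with DDD86481 (adjusted p = 0.00286), from levels of 138 to 154 and 152 to 158 CPM. These calls held in each fit that left out 1 library.

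LATS2 (chromosome 13, 21547175 to 21635725) encodes a kinase that phosphorylates YAP and TAZ, and is a target too. Its level ran from 55.9 to 72.7 CPM in control DMSO and from 35.5 to 40.6 in senescent DMSO libraries, a fall of 0.76 ± 0.14 (adjusted p = 6.41e-05). In senescent cells it ran from 26.5 to 34.4 CPM with IMP1088 and from 28.6 to 37.3 with DDD86481. The IMP1088 libraries lay below senescent DMSO and missed the threshold, with -0.35 ± 0.14 (adjusted p = 0.0511), and the DDD86481 libraries overlapped it, with -0.25 (95% interval -0.54 to 0.05). The IMP1088 value passed without senescent IMP1088 replicate 3 (adjusted p = 0.0232), with the replicate block (adjusted p = 0.0331) and under the other alternatives for scaling, tool, filter and groups (adjusted p from 0.00952 to 0.0441). In control cells LATS2 had 58.8 to 79.9 CPM with IMP1088 and 63.1 to 77.6 with DDD86481, which overlapped DMSO, with log2 fold changes of 0.07 (95% interval -0.21 to 0.35) and 0.13 (-0.15 to 0.41).

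The counts of calls stand beside the share of all 14341 genes called, since every comparison moved many genes. With senescence 9 of the 10 were lower and 0 higher, where 36% of all genes were lower and 32.5% higher. For 8 of the 10 every senescent DMSO library lay below every control DMSO library, as for 35.2% of all genes, while 32.4% lay wholly above. The median log2 fold change of the 10 was -0.92, against -0.05 over all genes. Upper quartile scaling moved the median of all genes to -0.21, and under it all 10 were called, TEAD1 at -0.47 (adjusted p = 0.0103). In senescent cells IMP1088 lowered 8 of the 10 and raised 1, where 23.9% of all genes were lower and 20.6% higher, and DDD86481 lowered 8 and raised 1, where the shares were 23.1% and 20.1%. All IMP1088 libraries lay below senescent DMSO for 9 of the 10 and above it for 1, against 32.9% and 28.1% of all genes, and all DDD86481 libraries for 8 and 1, against 28.7% and 24%. The medians of the 10 were -0.89 and -0.70. Also lower were the summed markers of contractile fibroblasts and smooth muscle (ACTA2, TAGLN, CNN1, MYH11 and DES), whose sum ran from 1676 to 2319 CPM in control DMSO, from 173 to 191 in senescent DMSO and from 46.5 to 54.9 in senescent IMP1088 and from 46.8 to 51.7 in senescent DDD86481 libraries. TAGLN and ACTA2 made up most of the sum, with means of 1410 and 420 CPM in control DMSO. In senescent cells DES and MYH11 held few counts and did not follow it in every group. DES had means of 0.160 CPM with DMSO, 0.251 with IMP1088 and 0.0902 with DDD86481, and MYH11 had 0.140, 0.0374 and 0.155. ACTA2 shares 29.1% of its exonic bases with ACTA2-AS1 on the other strand. TAGLN shares 38.14% with a gene without a symbol on the same strand and 34.09% with PCSK7 on the other. The part of these markers in the results was not tested. In bulk RNA, fewer cells of a kind and less RNA in each cannot be told apart.

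In control cells IMP1088 lowered 6 of the 10 and raised 0, where 17.4% of all genes were lower and 16.3% higher, and DDD86481 lowered 4 and raised 0, where the shares were 18.7% and 17.8%. The libraries lay wholly below control DMSO for 6 of the 10 with IMP1088 (21.3% of all genes, and 20.1% wholly above) and for 5 with DDD86481 (22% of all genes, and 21.4% wholly above). The medians of the 10 were -0.29 and -0.23. The marker sum in control cells ran from 427 to 589 CPM with IMP1088 and from 410 to 574 with DDD86481, and its part was again not tested. The 2 compounds were given at different doses and compared with the same DMSO libraries, so their values stand side by side without a comparison. For IMP1088 in control cells the count rested on few libraries: without control IMP1088 replicate 1, 2 of the 10 passed. Calls over all genes went from 4829 to 3505 in the same fit.

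**Figure D4:**
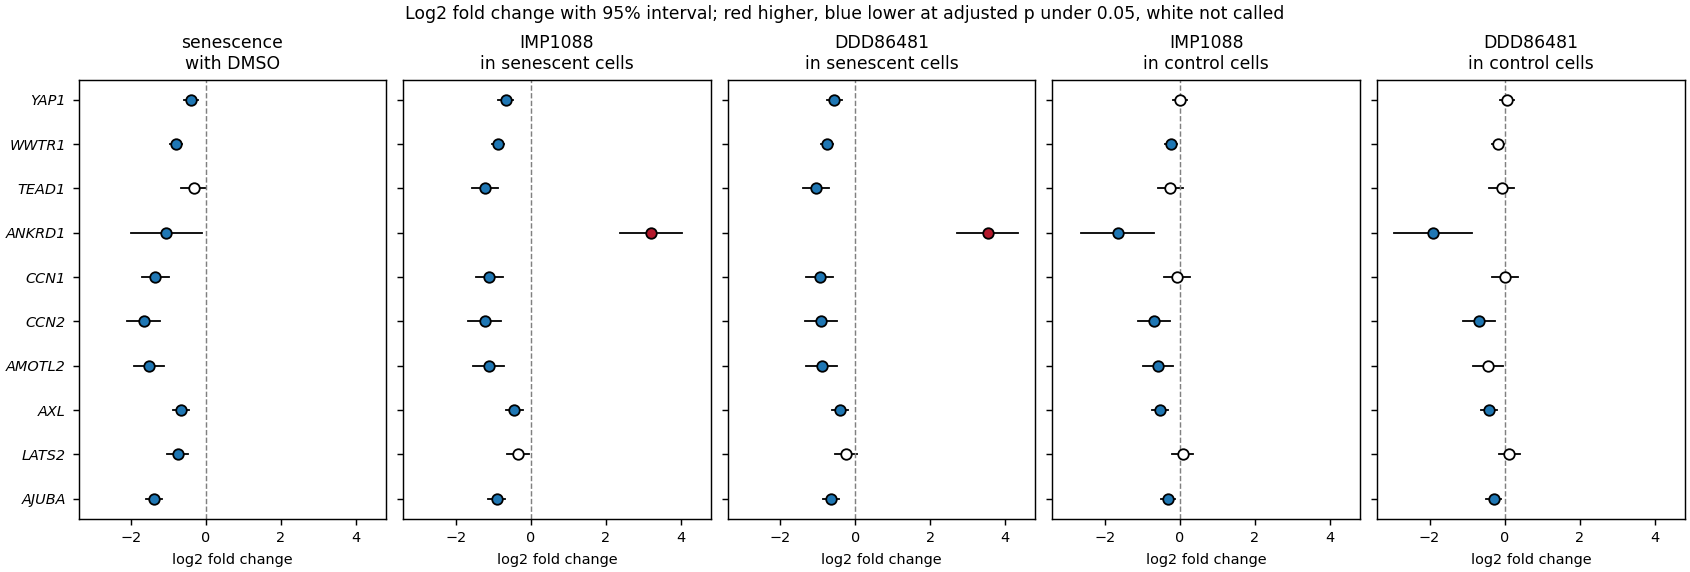
Log2 fold change of each of the 10 genes, with its 95% interval, in the 5 comparisons, with red for higher, blue for lower and white for not called. In the senescent NMTi panels ANKRD1 sits at 3.20 and 3.53, and the other points sit between -1.23 and -0.25.

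Whether NMTi acted differently in senescent and control cells was tested with an interaction term, the log2 fold change in senescent cells less the one in control cells. For IMP1088 it passed for 5 genes with a lower and 1 with a higher value, where 14.2% and 12.1% of all genes passed, and for DDD86481 for 4 and 1, where 15.9% and 14.4% passed. YAP1 (-0.66 ± 0.13, adjusted p = 0.000913 with IMP1088), WWTR1 (-0.63 ± 0.11, adjusted p = 0.000373), TEAD1 (-0.96 ± 0.23, adjusted p = 0.00458) and CCN1 (-1.03 ± 0.24, adjusted p = 0.00394) fell more in senescent than in control cells. The same 4 passed with DDD86481, at -0.62, -0.58, -0.97 and -0.96 (highest adjusted p = 0.00579). AJUBA passed with IMP1088 (-0.59 ± 0.14, adjusted p = 0.00471) and had -0.37 ± 0.14 with DDD86481 (adjusted p = 0.0528, 0.0371 with the replicate block and 0.0364 with DESeq2). ANKRD1 had the opposite sign, at 4.87 ± 0.61 (adjusted p = 1.33e-05) with IMP1088 and 5.43 ± 0.63 (adjusted p = 5.04e-06) with DDD86481. For CCN2 the terms were -0.53 (95% interval -1.13 to 0.08) and -0.25 (-0.85 to 0.36), for AMOTL2 -0.53 (-1.10 to 0.03) and -0.45 (-1.01 to 0.12), for AXL 0.09 (-0.21 to 0.39) and 0.02 (-0.28 to 0.32) and for LATS2 -0.42 (-0.82 to -0.01, adjusted p = 0.12) and -0.38 (-0.78 to 0.03), none of which passed. With no filter the IMP1088 terms of CCN2 and AMOTL2 passed (adjusted p = 0.0406 for both). The LATS2 term for IMP1088 passed without control DMSO replicate 1 (adjusted p = 0.0406), and the AJUBA term for DDD86481 passed without control DMSO replicate 3 (adjusted p = 0.0488). The terms called among the 10 stayed called whichever library was left out.

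Over the 18 libraries the log2 levels of the 9 genes other than ANKRD1 varied together, with Pearson's r from 0.80 to 0.98 in their 36 pairs, and ANKRD1 ran against each of them, with r from -0.88 to -0.66 in 9 pairs. These points share 6 groups and so describe the group differences again. Among all genes, the 3 whose pattern was most like that of YAP1 were SPIN1, NID2 and SGPL1 (r = 0.993 to 0.992), and for WWTR1 they were DLG3, ALDH1A3 and CALD1 (r = 0.993 to 0.992). For CCN1 they were RBMS3, JAZF1 and PDE5A (r = 0.987 to 0.984), for CCN2 CAVIN2, GLIPR1 and SCG2 (r of at most 0.977), and for ANKRD1 KIFBP, BUB3 and PRPS1 (r = 0.950 to 0.947).

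Paralogues of the 10 did not all follow them. CCN4, a matrix protein of the CCN family, fell by 3.57 ± 0.21 with senescence (adjusted p = 4.5e-12) and in senescent cells by 2.21 ± 0.30 with IMP1088 (adjusted p = 5.27e-06) and by 1.88 ± 0.28 with DDD86481 (adjusted p = 2.29e-05). CCN3 fell by 0.98 ± 0.17 with senescence (adjusted p = 3.55e-05), and its values under NMTi in senescent cells were positive without passing, 0.38 (95% interval 0.01 to 0.75, adjusted p = 0.0869) and 0.34 (-0.03 to 0.71). CCN5 had 11 to 28 counts in control libraries and at most 1 in senescent ones, and CCN6 had at most 2 counts in any library. AMOT, the founding angiomotin, had 36 to 50 counts in senescent DMSO libraries and 5 to 15 in senescent NMTi libraries. It fell by 2.27 ± 0.26 with senescence, by 2.05 ± 0.38 with IMP1088 in senescent cells and by 2.38 ± 0.40 with DDD86481 in them (highest adjusted p = 0.000187). AMOTL1 fell by 0.85 ± 0.19 with senescence (adjusted p = 0.000597) and had -0.52 ± 0.20 with IMP1088 in senescent cells (adjusted p = 0.0371), which held only in the fit without senescent IMP1088 replicate 3 when 1 library was left out, and -0.47 (95% interval -0.88 to -0.06, adjusted p = 0.0586) with DDD86481. Of the AJUBA family, LIMD1 fell in all 3 comparisons, by 0.35 ± 0.10, 0.74 ± 0.11 and 0.67 ± 0.11 (highest adjusted p = 0.00537), and WTIP fell by 1.15 ± 0.14 with senescence (adjusted p = 2.99e-07) and had -0.20 (95% interval -0.49 to 0.09) with IMP1088 in senescent cells. Group means of WTIP were 24.8 ± 4.1 CPM (SD) in senescent DMSO and 24.2 ± 5.9 in senescent DDD86481 libraries. LIMD1 shares 24.85% of its exonic bases with LIMD1-AS1. LATS1, the paralogue of LATS2, had 25.4 ± 7.2 CPM (SD) in control DMSO, 26.5 ± 4.5 in senescent DMSO, 20.8 ± 1.6 in senescent IMP1088 and 21.4 ± 2.7 in senescent DDD86481 libraries. In control cells it had 34.2 ± 3.5 CPM with IMP1088 and 36.8 ± 3.8 with DDD86481, and with DDD86481 it rose by 0.53 ± 0.17 (adjusted p = 0.0168), a call lost without control DMSO replicate 3 (adjusted p = 0.0797) or control DDD86481 replicate 1 (adjusted p = 0.0839). That call was also lost with only the groups compared (adjusted p = 0.0882).

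A wider list of 37 Hippo regulators and partners was tested in the same way. With senescence 8 rose and 12 fell, a smaller share than the 32.5% and 36% of all genes, and their median log2 fold change was -0.02. MAP4K4, a kinase upstream of LATS, rose by 1.75 ± 0.10 (adjusted p = 6.35e-12), STK4, which encodes the kinase MST1, by 1.06 ± 0.11 (adjusted p = 4.46e-08) and YWHAG, a 14-3-3 protein, by 0.71 ± 0.10 (adjusted p = 2.44e-06). MAP4K4 shares 18.36% of its exonic bases with FLJ20373 on the same strand. The largest falls were in the atypical cadherins FAT4 (3.69 ± 0.30, adjusted p = 1.17e-09) and DCHS1 (2.92 ± 0.23, adjusted p = 6.48e-10) and in AMOT.

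With IMP1088 in senescent cells 27 of the 37 fell and 1 rose, with a median of -0.52, and with DDD86481 24 fell and 1 rose, with a median of -0.47. Of all genes 23.9% fell and 20.6% rose with IMP1088, and 23.1% and 20.1% with DDD86481, and the median over all genes was -0.04 in both. The riser was RASSF1, a scaffold that binds MST kinases, at 0.67 ± 0.15 (adjusted p = 0.00092) with IMP1088 and 0.86 ± 0.15 (adjusted p = 8.17e-05) with DDD86481, and it shares 17.89% of its exonic bases with RASSF1-AS1. DCHS1 fell by 1.40 ± 0.26 (adjusted p = 0.000218) with IMP1088 and 1.30 ± 0.26 (adjusted p = 0.000453) with DDD86481, FAT1 by 1.66 ± 0.34 with IMP1088 (adjusted p = 0.000493) and the kinase gene NUAK2 by 1.27 ± 0.19 with DDD86481 (adjusted p = 2.46e-05). In control cells DCHS1 instead rose with DDD86481, by 0.56 ± 0.21 (adjusted p = 0.0386). This call was lost with only the groups compared (adjusted p = 0.153) and with upper quartile scaling (adjusted p = 0.0551). Leaving out any 1 of the control DDD86481 libraries, or control DMSO replicate 2 or 3, ended it too.

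In control cells 13 of the 37 fell and 1 rose with IMP1088, and 12 fell and 4 rose with DDD86481. The shares of all genes were 17.4% and 16.3% with IMP1088, and 18.7% and 17.8% with DDD86481. NF2, an upstream activator of the cascade also called merlin, fell by 0.82 ± 0.10 (adjusted p = 2.94e-06) with IMP1088 and 0.79 ± 0.10 (adjusted p = 4.22e-06) with DDD86481, and YWHAH, a 14-3-3 protein, by 0.83 ± 0.09 with each (highest adjusted p = 9.61e-07). WWC1, or KIBRA, fell by 0.97 ± 0.20 with IMP1088 (adjusted p = 0.000831) and TEAD4 by 0.63 ± 0.18 with DDD86481 (adjusted p = 0.00968), a call lost without control DDD86481 replicate 1 (adjusted p = 0.0765). TAOK1, a kinase upstream of MST, rose by 0.50 ± 0.19 (adjusted p = 0.0462) with IMP1088 and 0.68 ± 0.19 (adjusted p = 0.00835) with DDD86481. The first of these was lost with the replicate block (adjusted p = 0.0564), with RLE or upper quartile scaling, with only the groups compared, without any 1 of the control IMP1088 libraries, and was 0.24 (adjusted p = 0.193) without control DMSO replicate 3. The second was lost with only the groups compared (adjusted p = 0.0667). The total of 14 calls with IMP1088 became 22 without control DMSO replicate 1, and that of 16 with DDD86481 became 7 without control DDD86481 replicate 1. Calls over all genes went from 4829 to 5892 in the first of these fits and from 5242 to 3773 in the second. Over every fit that left out 1 library, the totals ran from 11 to 22 with IMP1088 and from 7 to 23 with DDD86481. Calls over all genes then ran from 3505 to 5892 and from 3773 to 6317. The interaction term passed with lower values in 13 and higher values in 2 of the 37 for IMP1088, a total of 15 that became 8 without control IMP1088 replicate 1, and in 14 and 2 for DDD86481. It passed with lower and higher values in 14.2% and 12.1% of all genes for IMP1088, and in 15.9% and 14.4% for DDD86481. Over all genes the IMP1088 total went from 3761 to 2738 without control IMP1088 replicate 1. With 1 library left out, the interaction totals of the 37 ran from 8 to 21 for IMP1088 and from 11 to 21 for DDD86481. Those over all genes ran from 2738 to 5242 and from 3419 to 5796.

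**Figure D5:**
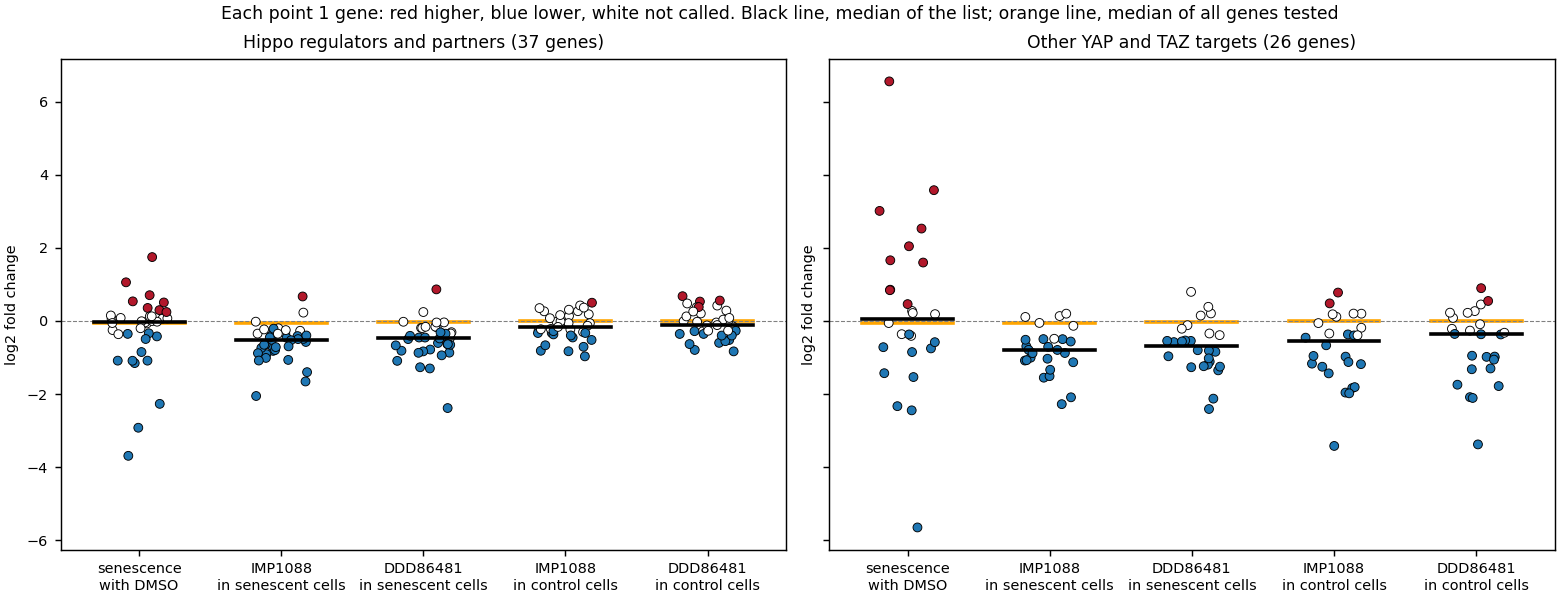
Log2 fold change of each gene of the 2 wider lists in the 5 comparisons, red for higher, blue for lower and white for not called, with the list median (black line) and the median of all genes tested (orange line). With senescence the other targets spread from -5.65 to 6.56, and with IMP1088 in senescent cells their median was -0.79.

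A list of 26 other genes described as YAP and TAZ targets had 10 that rose and 10 that fell with senescence, with a median of 0.06, which is near the 32.5% and 36% of all genes. Of these 26 genes, 2 also stood in the list of 37 regulators and partners and are counted in both. AREG, an EGF receptor ligand, went from 5.78 ± 2.3 to 538 ± 40 CPM (SD), a log2 fold change of 6.56 ± 0.30 (adjusted p = 7.59e-14). NT5E, the ectoenzyme CD73, rose by 3.01 ± 0.11 (adjusted p = 2.16e-15). BIRC5, or survivin, a gene of dividing cells, fell by 5.65 ± 0.32 (adjusted p = 3.12e-12), to 4 to 9 counts, CCDC80, a matrix protein, by 2.45 ± 0.09 (adjusted p = 4.13e-15), and RBMS3, which encodes an RNA-binding protein, by 2.33 ± 0.17 (adjusted p = 2.65e-10). In senescent cells 20 of the 26 fell and 0 rose with IMP1088, and 18 fell and 0 rose with DDD86481, with medians of -0.79 and -0.69. The shares of all genes that fell and rose were 23.9% and 20.6%, and 23.1% and 20.1%. THBS1, or thrombospondin, fell by 2.28 ± 0.21 (adjusted p = 6.19e-08) with IMP1088 and 2.13 ± 0.21 (adjusted p = 1.59e-07) with DDD86481, IGFBP3, which binds insulin-like growth factors, by 2.09 ± 0.13 (adjusted p = 2.93e-10) with IMP1088 and 2.41 ± 0.13 (adjusted p = 7.07e-11) with DDD86481, and F3, tissue factor, by 1.55 ± 0.19 (adjusted p = 1.7e-06) with IMP1088 and 1.35 ± 0.19 (adjusted p = 8.71e-06) with DDD86481.

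In control cells 16 of the 26 fell and 2 rose with IMP1088, and 15 fell and 2 rose with DDD86481, with medians of -0.56 and -0.37. Of all genes 17.4% fell and 16.3% rose with IMP1088, and 18.7% and 17.8% with DDD86481. BIRC5 fell by 3.42 ± 0.25 (adjusted p = 5.83e-09) with IMP1088 and 3.38 ± 0.25 (adjusted p = 6.89e-09) with DDD86481, HBEGF, a growth factor of the EGF family, by 1.98 ± 0.27 (adjusted p = 1.54e-05) with IMP1088 and 2.11 ± 0.28 (adjusted p = 1.04e-05) with DDD86481, and EDN1, endothelin, by 1.96 ± 0.22 (adjusted p = 1.4e-06) with IMP1088 and 2.08 ± 0.22 (adjusted p = 8.79e-07) with DDD86481. The pair that rose was AREG, by 0.78 ± 0.28 and 0.90 ± 0.28 (adjusted p = 0.0372 and 0.0165), and TGFB2, by 0.48 ± 0.17 and 0.55 ± 0.17 (adjusted p = 0.0304 and 0.0142). These calls were fragile. With IMP1088, AREG was lost without control DMSO replicate 1 or 2 or control IMP1088 replicate 2 or 3, and TGFB2 without control DMSO replicate 2 or 3 or control IMP1088 replicate 1 or 3 (adjusted p from 0.063 to 0.127). With DDD86481, AREG was lost without control DMSO replicate 1 or 2 and was 0.41 (adjusted p = 0.223) without control DDD86481 replicate 1, which also ended the call of TGFB2 (adjusted p = 0.0515). TGFB2 shares 22.66% of its exonic bases with TGFB2-OT1 and 11.59% with TGFB2-AS1. The interaction term passed with lower values in 9 and higher in 7 of the 26 for IMP1088 and in 10 and 7 for DDD86481, beside 14.2% and 12.1%, and 15.9% and 14.4%, of all genes.

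The cells were checked against lists of markers. All 10 fibroblast markers were above 3 counts in at least 1 library, with a summed level from 27730 to 39839 CPM in control DMSO and from 23079 to 25240 CPM in senescent DMSO libraries, and from 16083 to 18382 CPM in senescent NMTi libraries. The markers did not move as one. With senescence 8 of the 10 were lower and VIM was higher, from 5035 to 11681 CPM, while DCN went from 3042 to 7.73 CPM, LUM from 313.6 to 8.39 CPM and COL3A1 from 3701 to 295.9 CPM (group means). Summed levels reached at most 119 CPM for 6 epithelial, 10.7 CPM for 4 endothelial and 1.10 CPM for 5 leukocyte markers, and KRT5, SFTPC and CD3E had at most 3 counts in every library. Control DMSO replicate 3 stood apart on the third principal component, with a score of 57.3 against 14.8 and 27.8 for replicates 1 and 2, and it had the lowest value of its group for 6 of the 10 genes.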

How the data were processed

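Poly(A) RNA of 18 libraries was analysed from 1 table of counts per gene symbol, which the authors deposited without normalization. Their methods describe directional libraries aligned to hg19 with TopHat, while the processing notes of the submitters name hg38, DRAGEN, STAR 2.7.8a and DESeq2 1.32.0. HTSeq is on the software list of the study, which does not tie it to this table, and the strand setting of the counting is not given in the sources used here. The header of the table writes PCLX001 for DDD86481. The table had 28266 rows, 6836 of them empty of counts. At depths of 16143716 to 23189950 counts a library, 3 counts, the number a count of 0 allows, were worth 0.121 to 0.187 CPM. Such floors cover counting error only.

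Groups came from the labels, which do not say whether replicates were separate cultures. The study describes replicates of its displays of these data as independent experiments, and p-values measure the spread between these libraries. The filter filterByExpr kept 14341 genes with 99.962% of counts. After TMM scaling, the 6 groups entered 1 fit of edgeR's quasi-likelihood test (edgeR 4.0.16, R 4.3.3), with Benjamini-Hochberg adjustment over all genes tested and a threshold of 0.05. Standard errors came from the F statistic. CPM used the TMM library sizes, and log2 CPM a prior count of 2. The alternatives were RLE and upper quartile scaling, DESeq2 1.42.0, no filter, only the groups compared, the replicate number as a block and each library left out. A block with only the groups compared, and the counts of the wider lists under each alternative, were added after seeing the data.

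The 10 genes and all lists were chosen with earlier results of these data known. From each wider list, the text names up to 3 risers and 3 fallers per comparison by size, and paralogues of the 10. A gene that this rule would name is not reported here. Positions, exon lengths and overlaps came from GENCODE on GRCh37, and overlaps of at least 10% are given for the 10 genes and for the paralogues and wider-list genes named. Promoters came from RefSeq on GRCh38.p14.

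On counts simulated for IMP1088 in senescent cells (14229 genes), from senescent DMSO means with set changes, the test recovered 97 of 100 2-fold changes and 63 of 100 1.5-fold changes. It also called 9 of 14029 genes that had none. The changed genes were drawn from well-counted ones, so these rates do not cover genes as low as ANKRD1. The simulated spread followed the trend with level and not each gene's own. Far fewer genes were changed than the 6374 called in the real comparison. Replicates differed beyond sampling noise in every pair (lowest chi-square per gene 5.02). Between control DMSO and control IMP1088, libraries with one number deviated together (r of 0.394, 0.123 and 0.231), so numbers were taken to pair these groups. This rests on the correlations alone. In each other comparison with DMSO at least 1 of the 3 values of r was under 0.1.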

Additional observations from a re-analysis of the deposited data

Results flagged for a closer look

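The effect of NMTi differed between senescent and control cells, by the interaction term of edgeR's quasi-likelihood test, for 6 of the 10 genes with IMP1088 (5 lower, 1 higher, beside 14.2% and 12.1% of all genes) and 5 with DDD86481 (4 lower, 1 higher, beside 15.9% and 14.4%). With IMP1088 the log2 fold change in senescent cells less the one in control cells was -0.66 for YAP1, -0.63 for WWTR1, -0.96 for TEAD1, -1.03 for CCN1, -0.59 for AJUBA and 4.87 for ANKRD1. With DDD86481 it was -0.62 for YAP1, -0.58 for WWTR1, -0.97 for TEAD1, -0.96 for CCN1 and 5.43 for ANKRD1. For ANKRD1 the libraries of the 2 states moved in opposite directions, above DMSO in all 6 senescent and below DMSO in all 6 control libraries given NMTi. The 2 compounds share the DMSO libraries, so these values are not independent of each other.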

How the results depend on the processing

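With only the groups compared in the fit, IMP1088 in control cells called 2716 genes and 3 of the 10, against 4829 and 6 with all groups, and DDD86481 in control cells called 2842 against 5242. For IMP1088 in control cells, where replicate numbers pair the libraries, that fit with the replicate block called 4105 genes and 5 of the 10, WWTR1 having an adjusted p of 0.0913, and YAP1 turned sign at 7.32e-05. The replicate block over all 6 groups called 5003 genes in that comparison and moved 2 calls of the 10 genes in all comparisons, LATS2 with IMP1088 in senescent cells and the AJUBA interaction term with DDD86481, and 15 of 18 libraries correlated best with their own number. The calls lost with only the groups compared were those of WWTR1, AMOTL2 and AJUBA with IMP1088 in control cells, of AJUBA with DDD86481 in them (adjusted p = 0.0983, or 0.0702 with no filter) and of ANKRD1 with senescence (adjusted p = 0.0538, or 0.0515 with RLE scaling), and TEAD1 with senescence passed with no filter (adjusted p = 0.0454). Upper quartile scaling turned CCN1 with DDD86481 in control cells to -0.0587. Leaving out 1 library, the 10 genes called with IMP1088 in control cells numbered 2 to 6, beside 3505 to 5892 calls over all genes. Values near 0 crossed it: with IMP1088 in control cells YAP1 ran from -0.11 to 0.0674, CCN1 from -0.25 to 0.0136 and LATS2 from -0.0651 to 0.17, with DDD86481 YAP1 from -0.0371 to 0.14, TEAD1 from -0.32 to 0.15 and CCN1 from -0.19 to 0.16, and the AXL interaction term with DDD86481 from -0.0679 to 0.15. The cause of these moves was not tested. No called value of the 10 genes changed direction under any alternative run. Of 71 fold changes of paralogues and wider-list genes that were recomputed, 0 changed direction and 15 changed a call under at least 1 alternative. LATS1 with senescence and WTIP with DDD86481 in senescent cells were left out of these 71. Their group means differed by less than the SD of either group, and whether they changed direction is not given here. ANKRD1, with 5 to 42 counts in each library outside the senescent NMTi groups, is the gene whose precision depth limits most.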

Other observations

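Within senescent DMSO libraries, replicate 2 had the highest value of 7 of the 10 genes and replicate 3 the lowest of 8. Within senescent IMP1088 libraries, replicate 1 had the lowest value of 8 of the 10.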
